A study of Saccharomyces cerevisiae with 6 samples.

Results

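The 10 genes described here encode the thioredoxin-dependent peroxide defence of yeast. They are the 5 peroxiredoxins TSA1, TSA2, AHP1, PRX1 and DOT5, the 3 thioredoxins TRX1, TRX2 and TRX3, and the 2 thioredoxin reductases TRR1 and TRR2, chosen by name from the 7126 genes of the count table. The products of PRX1, TRX3 and TRR2 work in mitochondria, and those of the other 7 work in the cytosol or, for DOT5, in the nucleus. The strain was BY4741, labelled wild-type and haploid, a laboratory derivative of S288C in which HIS3, LEU2, MET17 and URA3 are deleted wholly or in part. Cultures were grown overnight in synthetic complete (SC) medium with glycerol, which yeast can only respire, or with glucose, which it prefers to ferment, and 3 biological replicates of each were sequenced after poly(A) selection. The comparison asks how the transcript levels of these genes, and the balance between their mitochondrial and other forms, differed between the carbon sources.

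A peroxiredoxin reduces hydrogen peroxide or an organic hydroperoxide with a reactive cysteine. In most peroxiredoxins the oxidised enzyme forms a disulfide, which a thioredoxin reduces, and the thioredoxin is in turn reduced by thioredoxin reductase, a flavoenzyme that takes its electrons from NADPH. Yeast keeps a separate thioredoxin and reductase in mitochondria, where respiration is a source of superoxide and hydrogen peroxide.

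The cytosolic and mitochondrial forms are products of related genes, so the reads of relatives must be told apart. The stretches around the redox-active cysteine pair are shown because they are the shared core of each family. They are 30 bases of the coding strand in the R64 genome of RefSeq, with the 2 cysteine codons in capitals.
TRX1 (chrXII:231906-231935, minus strand): gccacttggTGCggtccaTGTaaaatgatt
TRX2 (chrVII:913117-913146, minus strand): gccacatggTGTgggccaTGTaaaatgatt
TRX3 (chrIII:259731-259760, plus strand): gctacttggTGTggccccTGTaagatgatg
TRR1 (chrIV:1183713-1183742, plus strand): atttctgccTGTgccgtgTGTgatggtgcc
TRR2 (chrVIII:326081-326110, plus strand): atatctgccTGTgctgtaTGTgatggtgca
In these 30 bases TRX1 and TRX2 differed at 3 positions, TRX3 differed from either of them at 6, and TRR1 and TRR2 differed at 4. The first cysteine codon is codon 55 in TRX3, against codon 30 in TRX1 and codon 31 in TRX2, and codon 165 in TRR2, against codon 142 in TRR1. The mitochondrial genes were the longer ones, with 127 codons in TRX3 against 103 in TRX1 and 104 in TRX2, 342 in TRR2 against 319 in TRR1, and 261 in PRX1 against 196 in TSA1. Proteins imported into the mitochondrial matrix commonly carry a targeting sequence at their start. Over whole coding sequences, TSA1 and TSA2 shared 78.5% of 591 aligned bases, TRX1 and TRX2 73.7% of 312, and TRR1 and TRR2 75.8% of 960. Their longest identical stretches were 14, 17 and 20 bases, against reads sequenced as pairs of 150 bases. None of the 10 genes overlaps another gene of the table, where each of the 10 runs from start to stop codon only. The counts lack strand information, and whether transcripts of neighbours reach into these genes was not tested.

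The libraries held between 15289163 and 20038052 counts on genes. All 10 genes passed the minimum of 10 counts in at least 3 libraries, with between 145 and 26536 counts in a library, as did 6330 genes in all. LEU2, MET17 and URA3 had 0 counts in every library, which allows up to 3 counts, or 0.196 CPM (counts scaled to a library total of 1000000) in the smallest library. HIS3, of which BY4741 keeps a part, had 662 to 944 counts in glycerol and 958 to 1216 in glucose. The carbon source genes GUT1, GUT2 and STL1 were higher in glycerol and HXT1 and HXT3 lower. Of 6 genes of a MATa cell 5 were lower and 1 higher in glycerol. Their means lay between 24.6 and 61.7 normalized CPM in glycerol and between 10.2 and 1176 in glucose. All 4 genes of a MATalpha cell were higher, at means between 10.1 and 70.9 normalized CPM in glycerol and between 3.72 and 28.7 in glucose. In glycerol the MATa range thus lay within the MATalpha range. The part of these mating-type genes in the results below was not tested. Each bulk library gives a gene's share of the RNA, so fewer transcripts per cell and more RNA from other genes cannot be told apart.

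In glycerol, 4 of the 10 genes were higher and 6 lower than in glucose, all 10 with adjusted p below the threshold of 0.05 (quasi-likelihood test of edgeR, Benjamini-Hochberg over all tested genes). Among all 6330 tested genes 81.8% differed, 41.7% being higher and 40.1% lower, so that a call is not particular to these genes. The library values of the 2 groups did not overlap for any of the 10, and for 83.8% of all tested genes. PRX1 and TSA2 rose by more than a fold of 2, and AHP1, TRX1, TRX2 and TRR1 fell by more than that, under TMM. The median log2 fold change, glycerol over glucose, was -0.50 for the 10 genes and 0.03 for all tested genes. Fold changes are relative to the other transcripts. With library totals in place of TMM factors, which correct for a few genes taking much of a library, the median of all tested genes moved up by 0.50. TSA1 and TRX3, which lay close to that shift, were then at log2 fold changes of 0.0079 and -0.0093 and no longer differed, while the other 8 kept their direction and their call. Past a fold of 2 were then 3 genes higher, with DOT5 at 1.10 joining PRX1 and TSA2, and 2 lower, AHP1 and TRX1, since TRX2 was at -0.69 and TRR1 at -0.64.

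**Figure D1:**
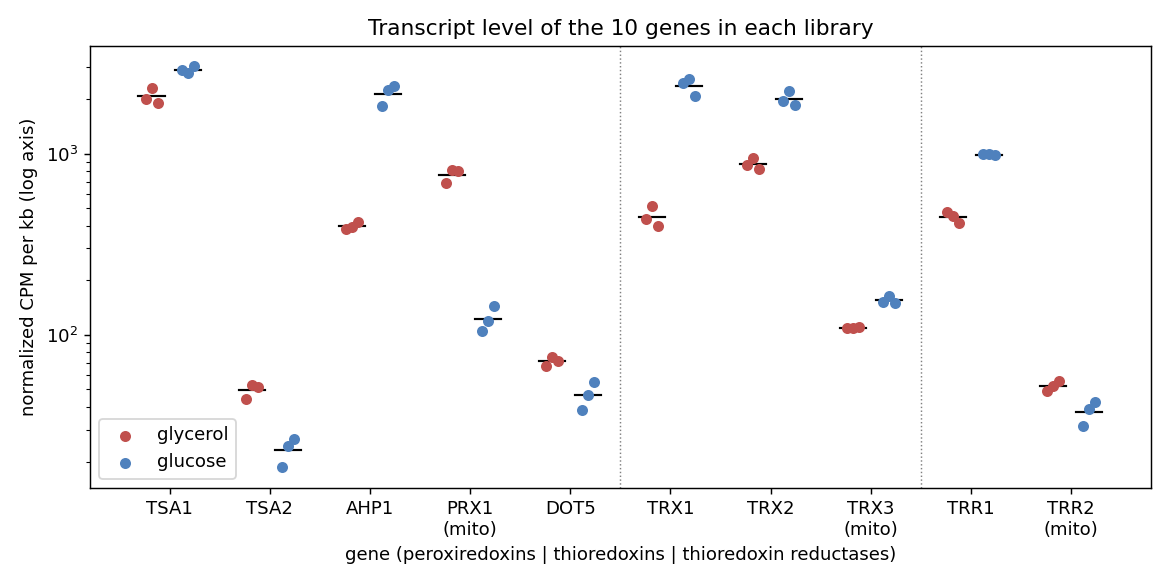
Level of the 10 genes in each library, as normalized CPM per kb of gene on a log axis, glycerol libraries (red) left of glucose libraries (blue), with a bar at the mean of 3 libraries. PRX1 stood at a mean of 766 in glycerol against 122 in glucose, whereas AHP1 and TRX1 were more than 5-fold lower in glycerol, and the groups of libraries are apart for all 10 genes.

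Among the peroxiredoxins, the transcript of PRX1 (YBL064C, chromosome II from 100371 to 101156, minus strand) showed the largest change. PRX1 encodes the mitochondrial peroxiredoxin, which has a single active cysteine. Its level, given here and below as normalized CPM per kb of gene, was 689, 809.7 and 800.3 in the glycerol libraries, against 105, 119 and 144 in the glucose libraries. The lowest glycerol library was thus more than 4 times the highest glucose library. PRX1 was 6.26-fold higher in glycerol, or 2.65 ± 0.14 on the log2 scale (standard error, as for each log2 value below; adjusted p = 9.0e-11), and 93.5% of all tested genes had a lower log2 fold change.

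AHP1 (YLR109W, chromosome XII from 368781 to 369311, plus strand), a cytosolic peroxiredoxin that favours alkyl hydroperoxides, moved the other way. Its level was 381, 395 and 421 in the glycerol libraries, against 1823, 2245 and 2349 in the glucose libraries. Every glycerol library was far below every glucose library. AHP1 fell by 2.42 on the log2 scale, a level 5.36-fold lower in glycerol (standard error 0.13; adjusted p = 1.1e-10), and 3.51% of all tested genes had a lower log2 fold change.

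The promoters of PRX1 and AHP1 are shown because these genes had the largest rise and the largest fall of the 10. Each window runs from 250 bases before the start codon to 50 bases from it (RefSeq, R64), read along the gene. Capitals mark AGGGG on either strand, the stress response element that Msn2 and Msn4 can bind, which also appears as CCCCT.
PRX1 (chrII:101107-101406, minus strand): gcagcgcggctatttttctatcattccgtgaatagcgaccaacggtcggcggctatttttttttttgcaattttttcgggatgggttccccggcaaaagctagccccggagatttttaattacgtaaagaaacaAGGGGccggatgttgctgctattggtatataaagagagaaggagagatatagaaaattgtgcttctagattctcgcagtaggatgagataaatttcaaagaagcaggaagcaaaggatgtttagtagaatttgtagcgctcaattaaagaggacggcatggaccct
AHP1 (chrXII:368531-368830, plus strand): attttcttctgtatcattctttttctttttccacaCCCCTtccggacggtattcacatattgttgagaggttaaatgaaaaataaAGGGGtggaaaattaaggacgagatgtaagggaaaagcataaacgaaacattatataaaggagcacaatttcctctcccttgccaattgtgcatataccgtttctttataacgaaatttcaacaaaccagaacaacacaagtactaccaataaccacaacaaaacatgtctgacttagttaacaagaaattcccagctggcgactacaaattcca
The PRX1 window held AGGGG once, from 116 to 112 bases before the start codon. The AHP1 window held it at 2 places, from 215 to 211 bases and from 165 to 161 bases before the start codon. AGGGG was found on either strand in the windows of 5 of the 10 genes, TSA1, AHP1, PRX1, TRX3 and TRR2, and in 21.6% of 6001 windows of all nuclear protein-coding genes. Genes with it were among those that rose and among those that fell. CCAAT, which the Hap complex binds, was found in 6 of the 10 windows, those of TSA2, AHP1, PRX1, TRX1, TRX3 and TRR1, and in 43.3% of all windows. The TRR1 match lay inside the coding sequence, and the TSA2 match from 6 to 2 bases before the start codon. A match of letters shows neither binding nor a cause of the values.

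TSA1 (YML028W, chromosome XIII from 220138 to 220728, plus strand) encodes the main cytosolic peroxiredoxin, which also acts as a chaperone. Its level was 2001, 2308 and 1889 in the glycerol libraries, against 2875, 2769 and 3038 in the glucose libraries. The groups did not overlap, and TSA1 had the highest level of the 10 genes in every library. Under TMM it fell by 0.49 on the log2 scale (standard error 0.12, adjusted p = 1.3e-03), a change that was 0.0079 (adjusted p = 0.954) with library totals. Its raw counts lay between 26265 and 26536 in glycerol and between 22441 and 23739 in glucose.

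TSA2 (YDR453C, chromosome IV from 1365072 to 1365662, minus strand), the close cytosolic relative of TSA1, had the lowest mean level of the 10 on both carbon sources, overlapping that of TRR2 in glycerol. It was at 44.3, 53.1 and 51.3 in the glycerol libraries, against 18.6, 24.5 and 26.5 in the glucose libraries. TSA2 rose by 1.09 on the log2 scale, a fold of 2.13 (standard error 0.14, adjusted p = 3.8e-06). Its counts per kb were 0.0241 times those of TSA1 in glycerol and 0.00801 times in glucose, and whether any TSA1 reads were counted on TSA2 was not tested.

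DOT5 (YIL010W, chromosome IX from 334882 to 335529, plus strand) encodes the nuclear peroxiredoxin. Its level was 67.0, 75.4 and 71.8 in the glycerol libraries, against 38.4, 46.7 and 55.0 in the glucose libraries, where the spread was wider. DOT5 rose by 0.61 on the log2 scale (standard error 0.13, adjusted p = 3.8e-04). The levels of the 5 peroxiredoxins summed to 3352 ± 252 in glycerol and 5225 ± 377 in glucose (SD, n = 3 each), a ratio of 0.641. With library totals the sums were 3979 ± 273 in glycerol and 4405 ± 411 in glucose, and the ranges of the groups overlapped.

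The thioredoxins all fell under TMM, but to different degrees. TRX1 (YLR043C, chromosome XII from 231702 to 232013, minus strand), a cytosolic thioredoxin, was at 436, 513 and 399 in the glycerol libraries, against 2443, 2581 and 2084 in the glucose libraries. The gap between the groups was much wider than the spread within either. TRX1 fell by 2.40 on the log2 scale, a level 5.27-fold lower in glycerol (standard error 0.13, adjusted p = 1.8e-10).

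TRX2 (YGR209C, chromosome VII from 912913 to 913227, minus strand), the other cytosolic thioredoxin, was at 865, 947 and 821 in the glycerol libraries, against 1946, 2214 and 1853 in the glucose libraries. TRX2 fell by 1.19 on the log2 scale (standard error 0.11, adjusted p = 1.2e-07), which is 2.28-fold lower in glycerol. The cytosolic relatives therefore changed places, TRX1 having the higher level in every glucose library and TRX2 in every glycerol library.

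The promoters of TRX2 and TRX1 are shown because the genes are close relatives whose changes differed in size. Windows are as above, and capitals mark TTACTAA on either strand (also seen as TTAGTAA), an element of the kind that Yap1 can bind, and would also mark AGGGG or the further element named after the sequences.
TRX2 (chrVII:913178-913477, minus strand): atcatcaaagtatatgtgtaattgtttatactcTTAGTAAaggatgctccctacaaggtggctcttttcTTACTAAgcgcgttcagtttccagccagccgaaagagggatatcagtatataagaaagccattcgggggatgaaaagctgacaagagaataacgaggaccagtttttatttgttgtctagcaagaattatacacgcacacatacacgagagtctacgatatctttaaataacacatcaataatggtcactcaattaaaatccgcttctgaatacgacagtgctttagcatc
TRX1 (chrXII:231964-232263, minus strand): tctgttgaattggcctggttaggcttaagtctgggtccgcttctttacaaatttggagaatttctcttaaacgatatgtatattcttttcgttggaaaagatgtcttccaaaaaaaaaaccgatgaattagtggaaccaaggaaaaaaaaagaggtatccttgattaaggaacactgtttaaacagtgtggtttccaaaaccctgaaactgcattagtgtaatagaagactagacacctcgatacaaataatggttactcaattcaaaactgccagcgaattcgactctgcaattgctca
TRX2 held TTACTAA at 2 places, from 217 to 211 bases and from 181 to 175 bases before the start codon, and was the only one of the 10 genes with it. It occurred in 7.45% of all 6001 windows. TGACTAA, a further element of this kind, was found for TRR1 alone among the 10, from 192 to 186 bases before the start codon, and in 3.62% of all windows. Neither of these elements, nor AGGGG, was found in the TRX1 window. No matches of different elements overlapped in the windows of the 10 genes.

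TRX3 (YCR083W, chromosome III from 259578 to 259961, plus strand) encodes the mitochondrial thioredoxin. Its level was 109, 109 and 110.4 in the glycerol libraries, against 151, 165 and 150.1 in the glucose libraries. Relative to their mean these were the tightest glycerol values of the 10 genes, and they lay below all 3 glucose values. Under TMM, TRX3 fell by 0.51 on the log2 scale (standard error 0.10, adjusted p = 1.8e-04), and with library totals the value was -0.0093 (adjusted p = 0.936). The levels of the 3 thioredoxins summed to 1436 ± 122 in glycerol and 4528 ± 437 in glucose (SD, n = 3 each). The ratio was 0.317, and 0.448 with library totals.

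The thioredoxin reductases moved in opposite directions. TRR1 (YDR353W, chromosome IV from 1183299 to 1184258, plus strand), the cytosolic reductase, was at 477, 452 and 414 in the glycerol libraries, against 988, 997 and 976 in the glucose libraries. It fell by 1.14 on the log2 scale, 2.21-fold lower in glycerol (standard error 0.11, adjusted p = 1.0e-07). TRR2 (YHR106W, chromosome VIII from 325598 to 326626, plus strand), the mitochondrial reductase, was at 48.8, 52.3 and 56.0 in the glycerol libraries, against 31.6, 39.0 and 42.6 in the glucose libraries. It rose by 0.47 on the log2 scale (standard error 0.12, adjusted p = 1.9e-03), the smallest rise of the 4. TRR1 had the higher level of the pair in every library.

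**Figure D2:**
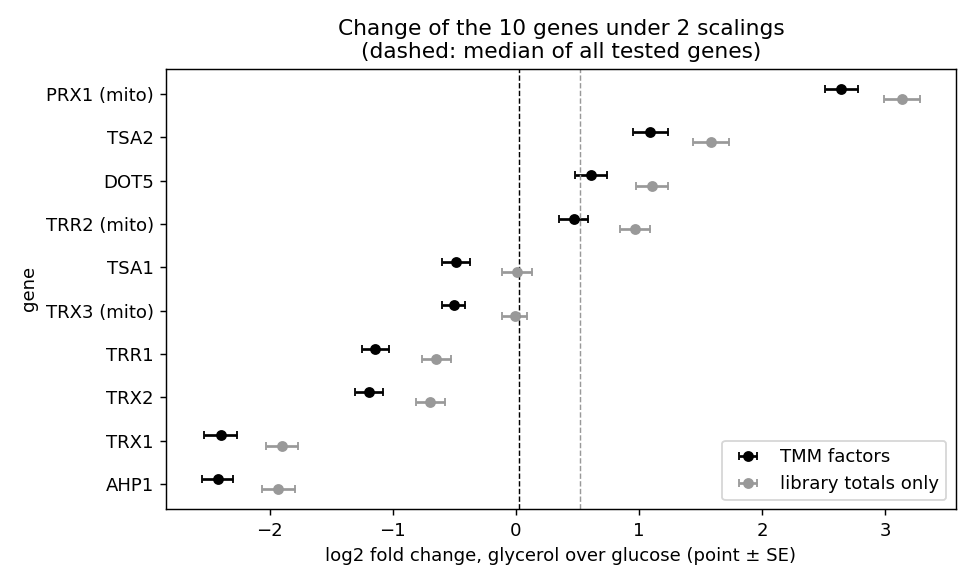
Log2 fold change (glycerol over glucose) of the 10 genes with its standard error under TMM (black) and with library totals only (grey), with dashed lines at the median of all tested genes under each scaling. The order of the genes is the same and every value lies higher without TMM, which takes TSA1 and TRX3 to 0.0079 and -0.0093.

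Set by place, the mitochondrial genes did not move together. PRX1 and TRR2 rose while TRX3 fell under TMM, giving a median log2 fold change of 0.47 over the 3. Of the 7 cytosolic and nuclear genes, 2 rose and 5 fell, with a median of -1.14. Among all tested genes 41.7% were higher and 40.1% lower. With library totals TRX3 was not past the threshold, and the 4 genes still lower, AHP1, TRX1, TRX2 and TRR1, were all cytosolic. Of all 6330 tested genes 3606 were then higher and 1652 lower. In sum, the 3 mitochondrial genes stood at 928 ± 71.0 CPM per kb in glycerol and 316 ± 25.4 in glucose (SD, n = 3 each). The ratio was 2.94 under TMM and 4.14 with library totals. This higher sum in glycerol rested on PRX1. TRX3 and TRR2 together were at 162 ± 4.52 in glycerol and 193 ± 10.4 in glucose under TMM, but at 192 ± 4.76 in glycerol and 163 ± 9.01 in glucose with library totals, so the direction of their sum depends on the scaling. PRX1 made up 82.5 ± 1.01% of the mitochondrial sum in glycerol and 38.7 ± 3.56% in glucose. The other 7 genes summed to 4360 ± 347 in glycerol and 10462 ± 379 in glucose, a ratio of 0.417 (0.588 with library totals). The mitochondrial genes held 17.6 ± 1.43% of the level of all 10 in glycerol and 2.93 ± 0.196% in glucose (SD, n = 3 each).

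Ratios between relatives within a library do not depend on the scaling, and all 6 ratios compared were higher in glycerol, 4 of them mitochondrial over cytosolic. For each, the 3 glycerol libraries lay above the 3 glucose libraries, with p = 0.1 in an exact two-sided permutation test of the log2 ratio (adjusted p = 0.1 over the 6). That is the smallest value 3 libraries against 3 can give, so none could pass 0.05. The 6 ratios are not independent, since TSA1, TRX1, TRX2 and TRX3 each enter more than a single ratio. Each ratio also has the gene with the lower mean level in glucose on top. How often ratios of other gene pairs keep the groups apart was not tested.

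The ratio of PRX1 to TSA1, in counts per kb, was 0.344, 0.351 and 0.424 in the glycerol libraries, against 0.0364, 0.0429 and 0.0474 in the glucose libraries. This was the widest gap of the 6, the ratio being 8.84-fold higher in glycerol. TRR2 over TRR1 was 0.102, 0.116 and 0.135 in the glycerol libraries, against 0.0320, 0.0391 and 0.0437 in the glucose libraries, 3.08-fold higher in glycerol. TRX3 over TRX1 was 0.249, 0.213 and 0.277 in the glycerol libraries, against 0.0619, 0.0638 and 0.0720 in the glucose libraries, 3.72-fold higher. The mitochondrial thioredoxin thus gained on its cytosolic relatives without a rise of its own. Against TRX2 the gain was less, 1.61-fold, with ratios of 0.125, 0.115 and 0.135 in the glycerol libraries and 0.0777, 0.0744 and 0.0810 in the glucose libraries.

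Between cytosolic relatives, TSA2 over TSA1 averaged 0.0241 ± 0.00270 in glycerol and 0.00801 ± 0.00134 in glucose (SD, n = 3 each), 3.03-fold higher in glycerol. TRX2 over TRX1 averaged 1.96 ± 0.107 in glycerol and 0.848 ± 0.0472 in glucose, 2.31-fold higher. A gain on the relative that was more abundant in glucose was therefore seen for cytosolic pairs as well as for mitochondrial ones.

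**Figure D3:**
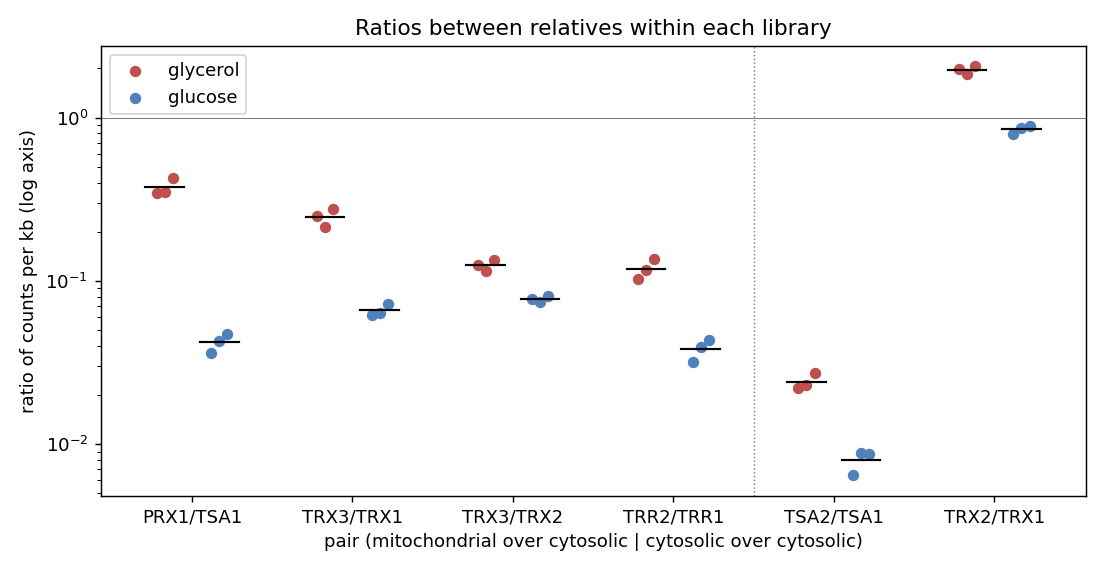
Ratio of counts per kb between relatives in each library on a log axis, glycerol (red) left of glucose (blue), bars at the mean of 3 libraries, with a line at a ratio of 1. All 6 ratios are higher in glycerol, and only TRX2 over TRX1 lies on different sides of 1, with a mean of 1.96 in glycerol and 0.848 in glucose.

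The make-up of each class changed accordingly. TSA1 gave 61.6 ± 2.74% of the peroxiredoxin counts per kb in glycerol and 55.5 ± 3.20% in glucose (SD, n = 3 each), and the share ranges of the groups overlapped. PRX1 took 22.9 ± 1.65% in glycerol and 2.33 ± 0.212% in glucose. AHP1 took 11.9 ± 1.09% in glycerol and 40.8 ± 2.94% in glucose, so that the second place behind TSA1 was held by PRX1 in glycerol and by AHP1 in glucose. DOT5 and TSA2 stayed minor, at 2.13 ± 0.0781% and 1.48 ± 0.0999% in glycerol and 0.890 ± 0.0946% and 0.442 ± 0.0515% in glucose. Among the thioredoxins TRX2 held 61.1 ± 0.707% in glycerol and 44.3 ± 1.28% in glucose, TRX1 held 31.2 ± 1.37% in glycerol and 52.3 ± 1.43% in glucose, and TRX3 held 7.65 ± 0.671% in glycerol and 3.44 ± 0.201% in glucose. TRR2 held 10.5 ± 1.32% of the reductase counts per kb in glycerol and 3.68 ± 0.546% in glucose.

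**Figure D4:**
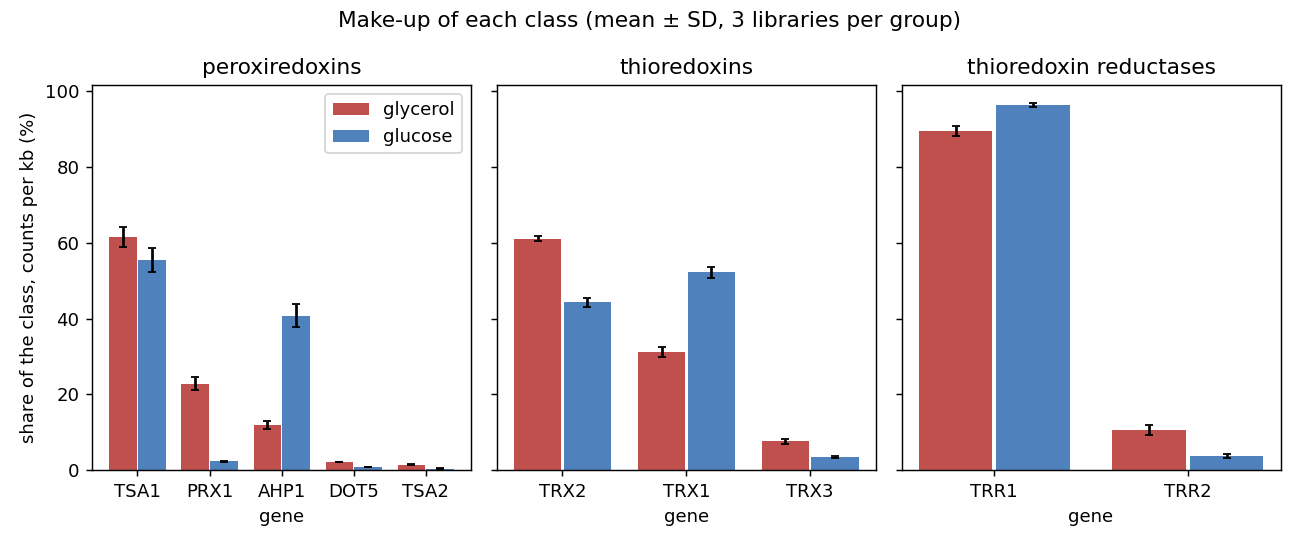
Share of each gene in the counts per kb of its class, in percent, as the mean of 3 libraries with SD, glycerol (red) left of glucose (blue). PRX1 holds 22.9% of the peroxiredoxin counts per kb in glycerol and 2.33% in glucose, and AHP1 holds 11.9% in glycerol and 40.8% in glucose.

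The order of the levels also differed. In glycerol it ran TSA1, TRX2, PRX1, TRX1, TRR1, AHP1, TRX3, DOT5, TRR2 and TSA2. The library values of TRX1, TRR1 and AHP1 overlapped there, as did those of TRR2 and TSA2. In glucose it ran TSA1, TRX1, AHP1, TRX2, TRR1, TRX3, PRX1, DOT5, TRR2 and TSA2, with TRX1, AHP1 and TRX2 overlapping, and DOT5 and TRR2. The highest mean level was 41.7 times the lowest in glycerol and 125 times in glucose. The 6 genes with the highest glucose levels were those that fell under TMM, and the 4 with the lowest were those that rose. Across the 10 genes the log2 level in glucose and the log2 fold change had a Pearson r of -0.76 and a Spearman rho of -0.72, against -0.61 and -0.59 across all 6330 tested genes. The glucose libraries enter both measures, and genes are not independent replicates, so these values are a description only. Against all tested genes, ranked by level per kb, PRX1 was number 227 in glycerol and 1440 in glucose. AHP1 was number 452 in glycerol and 169 in glucose, and TSA1 number 46 in glycerol and 131 in glucose, so that TSA1 ranked higher in glycerol although its level fell under TMM.

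Under TMM, replicates differed in a way that several genes shared. In glucose, replicate 3 was the lowest library for TRX1, TRX2, TRX3 and TRR1 and replicate 2 the highest for the same 4 genes. Replicate 1 was the lowest glucose library for TSA2, AHP1, PRX1, DOT5 and TRR2, and replicate 3 the highest for all 5 of these. In glycerol, replicate 1 was likewise the lowest library for these 5 genes, and for TRX3, and replicate 3 the lowest for TRX1, TRX2 and TRR1, and for TSA1. The lowest library thus had the same number in both groups for 8 of the 10 genes. The highest had the same number for TRX1 and TRX2 (replicate 2) and for AHP1 and TRR2 (replicate 3). How common this is among all tested genes was not tested. In glucose, replicates 1 and 3 lay close for TRX3 (151 and 150.1) and TRR1 (988 and 976). Which library was lowest for these genes therefore depends on the scaling. For each of the 9 genes named for glucose the range within glucose was smaller than the difference between the means of the groups.

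The enzymes served by the thioredoxin system, with sulfiredoxin, which repairs overoxidised peroxiredoxins, had 4 of 8 genes higher and 4 lower in glycerol under TMM, and 4 higher and 2 lower with library totals. SRX1, the sulfiredoxin gene, rose by 4.01 on the log2 scale (standard error 0.17, adjusted p = 1.2e-11), to 50.2 ± 6.31 normalized CPM in glycerol, against 3.11 ± 0.683 in glucose (SD, n = 3 each). That exceeded the rise of any of the 10 genes. RNR3 and RNR2, which encode subunits of ribonucleotide reductase, had log2 fold changes of 2.56 and 0.39 and both rose. MXR1, the cytosolic methionine sulfoxide reductase, fell by 3.05 on the log2 scale (standard error 0.13, adjusted p = 1.0e-11), and RNR1, the main large subunit of ribonucleotide reductase, fell by 2.07 on the log2 scale. MXR2, the mitochondrial methionine sulfoxide reductase, had -0.48 under TMM and 0.016 with library totals, where it no longer differed, and the same was true of RNR4, a further ribonucleotide reductase subunit, at -0.35 under TMM and 0.14 with library totals. The list had a median of -0.01 under TMM and 0.48 with library totals, close to the medians of all tested genes, 0.03 and 0.52. Among all 6330 tested genes 41.7% were higher and 40.1% lower under TMM, and 3606 were higher and 1652 lower with library totals.

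The list of glutathione and glutaredoxin genes also held peroxidase genes such as GPX1 and GPX2. Of its 16 genes 4 were higher, 8 lower and 4 not past the threshold, with a median of -0.14. With library totals 8 were higher and 5 lower, so its balance depends on the scaling. The same holds for all 6330 tested genes, with 2637 higher and 2539 lower under TMM, and 3606 and 1652 with library totals. The change of balance is thus not particular to this list. The peroxidase gene GPX1 rose by 2.42 on the log2 scale, and the glutathione transferase genes GTT1 and GTT2 by 2.04 and 1.29. All 3 rose under either scaling. GPX2, a further peroxidase gene, fell by 2.74 on the log2 scale, and the glutaredoxin genes GRX3 and GRX7 also fell, with log2 fold changes of -1.86 and -1.61. GPX1 and GPX2 therefore changed in opposite directions, as TRR2 and TRR1 did.

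Of 6 genes for catalases, superoxide dismutases and cytochrome c peroxidase, 4 were higher and 2 lower, under TMM and with library totals alike. For this list and the next, the shares over all tested genes were 41.7% higher and 40.1% lower under TMM. With library totals 3606 of 6330 were higher and 1652 lower. CTA1, the peroxisomal catalase, rose by 3.49 on the log2 scale, CTT1, the cytosolic catalase, by 2.58, and SOD2, the mitochondrial superoxide dismutase, by 1.10. SOD1, the mainly cytosolic superoxide dismutase, fell by 1.36 on the log2 scale, and CCS1, its copper chaperone, fell by 1.11 on that scale. Among 5 regulators of such genes, 3 were higher and 1 lower under TMM, while with library totals 4 were higher and MSN4 was not past the threshold. Transcripts of YAP1, whose product activates peroxide response genes, rose by 1.62 on the log2 scale, of MSN2 by 1.35 and of SKN7 by 1.17. MSN4, a relative of MSN2, was at -0.34 under TMM, which was 0.16 and not past the threshold with library totals. YBP1, which encodes a partner of Yap1, was at -0.09 and not past the threshold under TMM, but at 0.40 and higher with library totals. Transcripts of a regulator do not measure its activity.

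Genes linked to the supply of NADPH, the electron donor of both reductases, had 10 of 14 members higher and 3 lower, with a median of 0.62. All tested genes had 41.7% higher and 40.1% lower, with a median of 0.03. The list is broader than the enzymes that make NADPH themselves, and holds SOL3 and SOL4, for example. IDP2, the cytosolic NADP-dependent isocitrate dehydrogenase, rose by 5.64 on the log2 scale, ALD4, the mitochondrial aldehyde dehydrogenase, by 4.60, and GND2, the minor 6-phosphogluconate dehydrogenase, by 4.59. GND1, the major form of that enzyme, fell by 2.35 on the log2 scale. MAE1, the mitochondrial malic enzyme, and SOL3, a 6-phosphogluconolactonase, had log2 fold changes of -1.49 and -1.32 and also fell. With library totals the list had 11 higher and 3 lower, beside 3606 higher and 1652 lower of all 6330 tested genes. The share of genes that differed was high in every list, as it was among all tested genes.

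**Figure D5:**
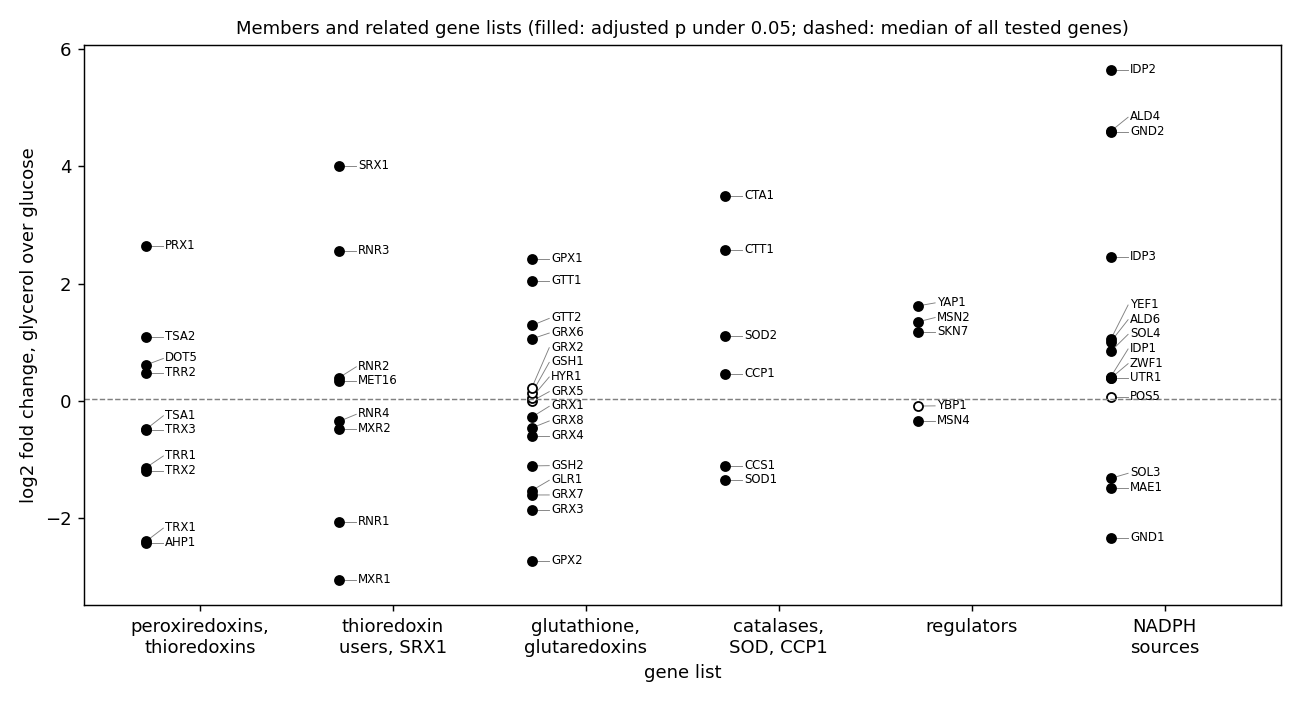
Log2 fold change (glycerol over glucose, TMM) of each gene in the peroxiredoxin and thioredoxin group and in 5 related lists, filled where the adjusted p was under 0.05, with a dashed line at the median of all tested genes. SRX1 at 4.01 and MXR1 at -3.05 lie outside the range of the 10 genes, which runs from -2.42 for AHP1 to 2.65 for PRX1.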

How the data were processed

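Counts of reads per gene, without normalization, and FPKM were deposited by the authors for 6 libraries in one table. The submitters' processing notes name fastp 0.20.1, HISAT2 2.2.1, featureCounts 2.0.1, DESeq2 and the R64 genome, without a role for each. How reads that match several genes were counted is not given in the sources used here. The deposited FPKM are counts per kb divided by a library size of 1.16 to 1.17 times the count total in glycerol and 0.810 to 0.843 times in glucose, so ratios within a library are the same in both units. The authors' own group means, fold changes and p-values were not used. Groups and replicate numbers came from the sample labels, and no per-sample column was left out (0 unused).

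Genes reaching 10 counts in 3 libraries or more entered edgeR 4.0.16 with TMM factors (R 4.3.3, quasi-likelihood test, Benjamini-Hochberg over 6330 genes, threshold 0.05). TMM factors were 1.18 to 1.20 in glycerol and 0.829 to 0.865 in glucose. Normalized CPM are counts scaled to 1000000 of the library total multiplied by its factor. A standard error is the size of the log2 fold change over the root of F. Alternatives used DESeq2 1.42.0 and limma 3.58.1. Ratios were tested by exact permutation over libraries. The steps were tested on simulated counts in which only a small part of the genes was changed, whereas 81.8% of tested genes differed here. The simulation therefore cannot decide between TMM factors and library totals. Replicates differed by 16.4 to 63.7 times counting noise (chi-square per degree of freedom), so no library is a copy of another.

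Pairing by replicate number was examined with deviations from group means. Over 5667 genes averaging 100 counts or more, same-numbered libraries correlated at 0.243, 0.102 and 0.278, all above the limit of 0.1 set for pairing, and over all tested genes at 0.102, 0.0409 and 0.0866. By that limit, set for the 5667 genes, the numbers pair the libraries. The main tests left them unpaired, and the pairing entered only as an alternative. No label says what a number shares.

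All 10 genes matched RefSeq R64 with the same start and end. Sequences were read from that genome with Biopython 1.88. The reductase cysteine pair was located as a cysteine, any 2 residues and a cysteine, after a narrower pattern tried first had no match in them. Figures used matplotlib 3.10.9 in Python 3.11.15. From each related list at most 3 genes with the largest rise and 3 with the largest fall past the threshold are named. RNR4 and YBP1 were named after their values were seen, because their calls changed with the scaling. The genes, lists and tests were chosen with earlier results of these data known.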

Additional observations from a re-analysis of the deposited data

How the results depend on the processing

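Sums over genes and the related lists are left aside here, since their values with library totals were added after seeing the data. Of 236 alternative values, 233 had the direction and call of the value reported or, for counts of genes, lay within 1.5 times of it. Ratios were judged by direction alone. With deposited FPKM or the replicate block their values could not change, so those alternatives add no check. Since the groups did not overlap for any ratio, leaving out a library could not reverse a direction either. Adding 0.5 to counts of 145 or more hardly moved the ratios. The alternatives for the ratios are among the 236 but were no test of their direction. The 3 values of the 236 outside these limits came with library totals and no composition factor. The number of all tested genes lower in glycerol was then 1652 in place of 2539, and of those higher 3606 in place of 2637. TSA1 was at 0.0079 and TRX3 at -0.0093, neither past the threshold, so 4 of the 10 genes were lower in place of 6, and 4 were higher in both. The fall from 6 to 4 genes was still counted as within 1.5 times. With each library left out in turn, 4 were higher and 6 lower in all 6 fits. TSA1 then lay between -0.55 and -0.40, TRX3 between -0.53 and -0.46, TRR2 between 0.36 and 0.57 and DOT5 between 0.49 and 0.74, with adjusted p at most 0.0139. Fits with a library left out pool the spread of both groups. With the replicate numbers as a block, 4 of the 10 genes were higher and 6 lower, and 2656 and 2573 of all genes, so that the pairing changed no call among the 10. The paired ratios were unchanged in value, with p = 0.25 in an exact sign-flip test, the smallest that 3 pairs allow. Ratios between relatives were higher in glycerol in every fit run, a direction that the lack of overlap fixed beforehand. The size for PRX1 over TSA1 was 3.04 to 3.23 on the log2 scale with a library left out. With 145 counts or more for each of the 10 genes in every library, depth did not limit their detection.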
